A study of Mus musculus with 20 samples.

Results

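RNA of the paraventricular thalamic nucleus (PVT) was compared between mice given streptozotocin (STZ) and mice given vehicle. The PVT libraries were chosen by the tissue and group in the labels, and they made up 10 of the 20 libraries of the series. The 4 control libraries came from vehicle-treated mice. The 6 STZ libraries came from mice given a single intraperitoneal dose of 200 mg/kg STZ, a compound that kills the insulin-producing beta cells of the pancreas. All tissue was punched from fresh brain at week 7. The labels used here give no strain, genotype, sex, age, blood glucose or behaviour, nor how many mice a library held, so each p-value measures the spread between these libraries. The other 10 libraries, 4 control and 6 STZ, were of posterior insular cortex (pIC) and served as a second region. Results are given for genes outside 3 lists that were set aside, interferon-stimulated genes, glucocorticoid-induced genes and genes of ependymal cells.

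The PVT is a strip of midline thalamus just below the ventricle of the midline. Its glutamatergic neurons receive input on arousal, feeding and threat and project to the nucleus accumbens, amygdala and cortex. The habenula and stria medullaris lie beside it, ciliated ependymal cells line the ventricle above it and choroid plexus hangs in that ventricle, so a punch can carry cells of all of these.

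The labelled tissue was checked against its markers. Calb2 (calretinin of midline thalamic neurons) lay between 65.0 and 342 CPM (read counts scaled to a common library total, after TMM scaling) in PVT and between 7.27 and 21.3 CPM in pIC libraries. Zic1, a transcription factor of medial thalamus and habenula, lay between 160 and 264 CPM against 8.74 to 31.8 CPM. Tcf7l2, a thalamic transcription factor, ran from 7.55 to 169 CPM within PVT and from 2.66 to 4.23 CPM in pIC. All 3 were thus higher in every PVT library than in any pIC library. Total counts were 17939029 to 25345195 in the PVT libraries, and mitochondrially encoded genes took 5.66% to 6.75% of them. Transcripts of other tissue stood out in several PVT libraries. Control 4 held the pituitary hormone transcripts Gh at 12471 CPM and Prl at 2216 CPM. STZ 5 and STZ 6 held Pmch, of lateral hypothalamic neurons, at 327 and 142 CPM, against at most 0.852 CPM in the control libraries. The summed level of striatal markers was 5715 CPM in STZ 1 and 4291 CPM in STZ 3, against at most 2584 CPM in control libraries. Among hypothalamic hormone transcripts, Avp (vasopressin) was at 127, 350 and 232 CPM in STZ 4, 5 and 6 and at most 45.5 CPM elsewhere. Oxt (oxytocin) was at 97.7 and 136 CPM in control 1 and control 3 and at 119 to 159 CPM in STZ 4, 5 and 6.

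Marker scores (the mean log2 CPM of a list of cell type or region genes) described what each punch held. Only 2 of 21 lists separated the groups. The score of oligodendrocytes and myelin was 6.92 to 7.12 in control and 6.32 to 6.83 in STZ libraries, with a negative fold change for 27 of 28 markers. The ependyma score was 2.69 to 3.10 in control and 2.05 to 2.54 in STZ libraries, with a negative fold change for 34 of 35 markers. The choroid plexus score was lower by a mean of 0.76 on the log2 scale, with 22 of 22 markers negative, but its groups overlapped, and its summed level was 3342 to 6760 CPM in control and 1529 to 3748 CPM in STZ libraries. Neuronal content varied widely within the groups. Between the lowest and the highest library the thalamus score spanned 5.51-fold, the habenula score 6.03-fold, the hypothalamus score 7.48-fold and the striatum score 10.98-fold, and each overlapped between the groups. The summed level of endothelial markers was 719 to 736 CPM in control and 774 to 859 CPM in STZ libraries, while their mean log2 score overlapped. Without Slc2a1 and Mfsd2a, which are described further on, the sum of the other 20 markers was 551.8 to 566.8 CPM in control and 528.8 to 593.1 CPM in STZ libraries. No marker was at 0 in all 10 libraries in these lists. In bulk tissue fewer cells of a type and less RNA per cell cannot be told apart.

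**Figure D1:**
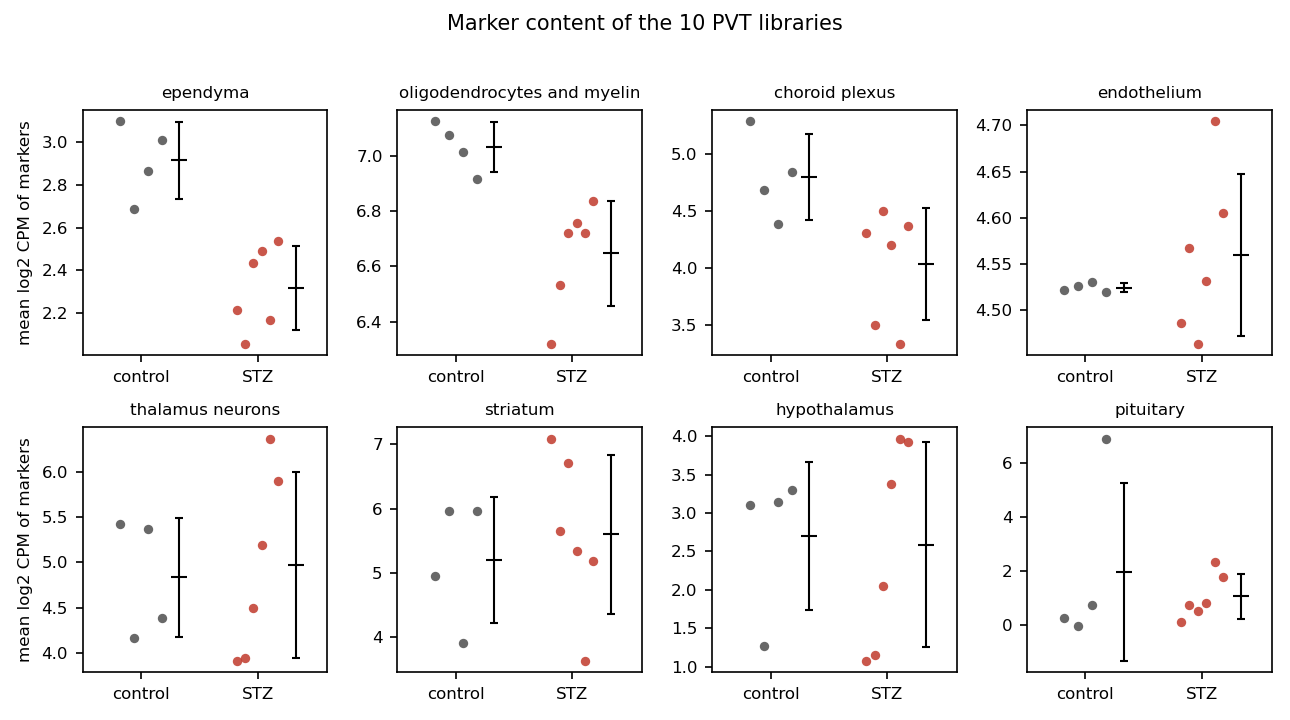
Marker scores (mean log2 CPM of the markers of a list) in each of the 4 control (grey) and 6 STZ (red) PVT libraries, with mean and SD beside the points and a separate axis for each list. Ependyma and oligodendrocyte scores do not overlap between the groups, and the scores of thalamus, striatum and hypothalamus spread widely within both groups.

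Of 17076 genes tested in PVT, 81 were higher (0.474%) and 272 lower (1.59%) in STZ mice (edgeR quasi-likelihood test, Benjamini-Hochberg adjusted p under 0.05), 353 in all (2.07%). The 3 lists set aside held 97 of these calls, 12 higher and 85 lower. The other 256 calls, 69 higher and 187 lower, are described here. The groups did not overlap for 251 of these 256 genes, against 1050 of all tested genes (6.15%, with STZ above control for 2.25% and control above STZ for 3.89%). The 256 genes were called on these same libraries, so their lack of overlap largely follows from the selection and is no separate support. The median log2 fold change was 0.41 for the 69 higher and −0.63 for the 187 lower genes. The lists set aside did not hold every gene of their kind. Among the 187 lower genes, chosen after their values were seen, were the interferon-inducible Ifi213 and Gbp10, with log2 fold changes of −3.17 and −3.14, and the cilia genes Rsph9, Cfap157 and Enkur, with −0.60, −0.75 and −0.55. Ifi213 had a mean of 0.746 CPM in control and 0.0764 CPM in STZ libraries, so few reads carry its fold change.

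Punch content moved with the calls to a different degree for each tissue. When the score of thalamus, striatum or hypothalamus was a term of the model, 69 of 69 higher and 187 of 187 lower genes kept their call. With the choroid plexus score 4 higher and 16 lower genes kept it, with the myelin score 2 and 1, and with the ependyma score 0 and 1. The median fold changes moved less, to 0.37 and −0.53 with choroid plexus, 0.39 and −0.54 with myelin, and 0.35 and −0.41 with ependyma. The myelin and ependyma scores do not overlap between control and STZ libraries, so in those fits the score and the treatment cannot be told apart. The lower genes were more abundant in PVT than in pIC of control mice, with a median log2 ratio of 0.90 against 0.04 over all genes, and 75 of 187 were over 2-fold more abundant there. For the higher genes the median ratio was −0.20 and 0 of 69 were over 2-fold. The control PVT libraries enter both this ratio and the calls. Selection alone can therefore raise the ratio of lower genes and reduce that of higher genes, by an amount that was not tested. The share of all tested genes over 2-fold is not given here, so the counts of 75 and 0 stand without a background.

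**Figure D2:**
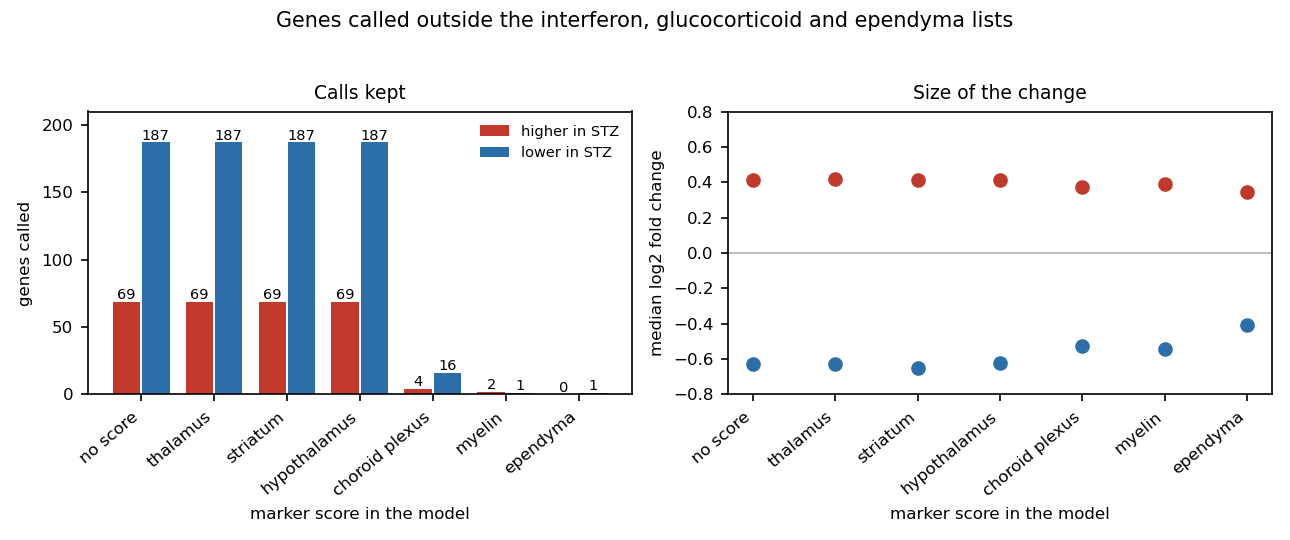
Genes called in PVT outside the 3 lists that keep their call when a marker score is added to the model (left, higher in red, lower in blue), and their median log2 fold change in the same fits (right). Scores of thalamus, striatum and hypothalamus leave all 69 and 187 calls, scores of choroid plexus, myelin and ependyma leave at most 4 and 16, and the medians keep their sign.

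Single libraries bore on the count. There were 143 calls without control 4, 151 without STZ 4, 156 without control 1, 206 without STZ 3, 210 without STZ 1 and 211 without control 3. Without control 4, STZ 5 and STZ 6 together there were 146 calls, 32 higher and 114 lower, and 16 of the 69 and 58 of the 187 were among them. Without the 4 libraries of the lowest thalamus score (control 2, control 4, STZ 1 and STZ 2) there were 35 calls, with 2 and 6 of them kept. Of 71 called genes that the naming rule or a list put forward, 30 kept their call without each library in turn, 12 lost it in 1 to 3 of the 10 fits and 29 in 4 to 9. None of the 71 changed direction in these fits. Upper quartile scaling gave a median of −0.05 over all genes, against 0.00, with 58 higher and 416 lower genes.

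Genes of MHC class I antigen presentation fell together. These genes make, load and display peptides at the cell surface for recognition by CD8 T cells, and are inducible by interferons. Of 19 tested members 13 were lower and 0 higher, 19 of 19 had a negative fold change, and the control values lay above the STZ values for 15, against 3.89% of all tested genes. The median log2 fold change was −0.90, against 0.00 for all tested genes. DESeq2 called 16 lower and limma-voom 12, and 7 to 12 were called when 1 library was left out. In pIC 11 of the 19 were lower (0.964% of all genes tested there), with a median of −0.77. Of the 10 tested MHC class II genes, which present peptides to CD4 T cells, 0 were called by edgeR, DESeq2 or limma-voom, with 1 higher and 5 lower at an unadjusted p under 0.05 and a median of −0.38.

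The light chain of every class I molecule is B2m (beta-2 microglobulin, ENSMUSG00000060802). Its level was 191, 218, 168 and 246 CPM in control 1 to 4, and from 97.6 to 117 CPM with a median of 106 CPM in the STZ libraries. Every control library lay above every STZ library, and the log2 fold change was −0.95 (SE 0.0982, edgeR adjusted p = 4.83e-04). The heavy chain H2-K1 was at 79.2, 83.4, 61.9 and 104 CPM in control libraries and at 30.9 to 40.7 CPM (median 37.5) in STZ libraries. Its groups were also apart. H2-K1 fell by 1.17 (SE 0.133, edgeR adjusted p = 9.44e-04), and H2-D1, the other classical heavy chain, by 0.90 with an adjusted p of 0.0015. Reads of H2-K1, H2-D1, H2-Q4 and H2-M3 can match near-identical class I genes, so their separate values are uncertain.

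Genes of peptide supply were lower as well. Tap1, 1 chain of the transporter that carries peptides into the endoplasmic reticulum, was at 7.52, 9.50, 6.63 and 8.91 CPM in control libraries and at 2.39 to 3.54 CPM (median 2.95) in STZ libraries. The groups were far apart, and Tap1 fell by 1.49 (SE 0.139, edgeR adjusted p = 2.56e-04), while Tap2, its partner chain, fell by 0.78. Psmb8, a catalytic subunit of the immunoproteasome that cuts proteins into presentable peptides, was at 7.31, 7.81, 5.26 and 7.63 CPM in control and 2.56 to 3.23 CPM (median 2.83) in STZ libraries. Psmb8 fell by 1.29 (SE 0.132, edgeR adjusted p = 4.78e-04), and its neighbouring subunit gene Psmb9 by 1.74. Tap1 and Psmb9 overlap on opposite strands in GENCODE, and the strand setting of the counting is not given, so reads of the overlap cannot be assigned to 1 of them. Smaller falls were called for Tapbp (−0.55), which bridges the transporter to the heavy chain, Erap1 (−0.43), a trimming peptidase, and Psme2 (−0.49), a proteasome activator. Nlrc5, the transactivator of class I genes, fell by 1.43.

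Calls of B2m, H2-K1, H2-D1, Tap1, Tap2, Psmb8 and Psmb9 held without each library in turn. Those of Tapbp, Erap1, Psme2, Nlrc5, H2-Q4 and H2-M3 were each lost in 6 to 9 of the 10 fits, including those without control 1, without control 4 and without STZ 4, with adjusted p of up to 0.152 for Erap1 without control 4. With the choroid plexus score 5 members of the class I list stayed called and with the myelin or ependyma score 0, while the list's median was −0.85, −1.04 and −0.94.

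**Figure D3:**
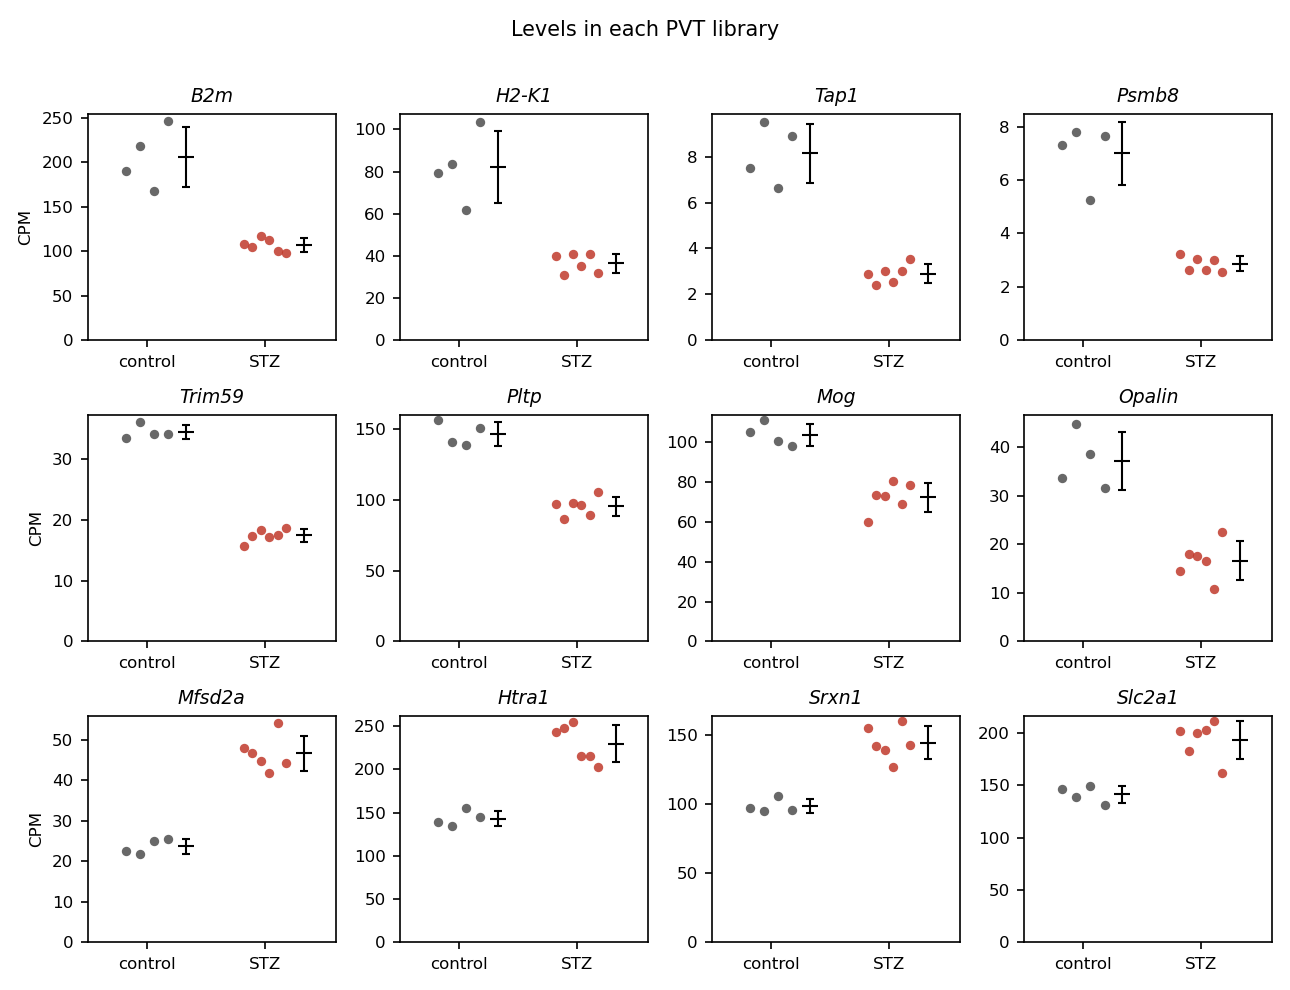
Levels in CPM of 12 genes in each control (grey) and STZ (red) PVT library, with mean and SD beside the points and axes from 0. In the upper 2 rows all control libraries lie above all STZ libraries, and in the lowest row all STZ libraries lie above all control libraries.

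Promoter sequences are shown for lower genes outside the interferon list, because an interferon-stimulated response element was common in that list's promoters. RefSeq windows (GRCm38.p6, 250 bases before to 50 after a start) were searched on both strands for GAAA, any 2 bases and GAAA again. It was in 3.44% of 32851 windows, and in the windows of 3.68% of 12248 tested genes that have one. Of the lower genes in the interferon list 32 of 50 with a window held it (64.0%). Outside the 3 lists, it was in the windows of 13 of 131 lower genes (9.92%) and 1 of 59 higher genes (1.69%). The lines give the 250 bases before the start, 5′ to 3′ on the gene's strand, with matches on either strand in capitals. B2m lies on the plus strand at chr2:122147437-122147686. Cybb, which encodes the oxidase subunit of phagocytes, lies on the minus strand at chrX:9469325-9469574. Ddx60, an RNA helicase of antiviral sensing, lies on the plus strand at chr8:61927837-61928086.
B2m: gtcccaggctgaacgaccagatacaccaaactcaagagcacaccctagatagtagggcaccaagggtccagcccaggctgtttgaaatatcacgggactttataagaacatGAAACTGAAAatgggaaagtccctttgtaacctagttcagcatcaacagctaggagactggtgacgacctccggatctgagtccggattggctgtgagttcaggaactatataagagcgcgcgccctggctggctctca
Cybb: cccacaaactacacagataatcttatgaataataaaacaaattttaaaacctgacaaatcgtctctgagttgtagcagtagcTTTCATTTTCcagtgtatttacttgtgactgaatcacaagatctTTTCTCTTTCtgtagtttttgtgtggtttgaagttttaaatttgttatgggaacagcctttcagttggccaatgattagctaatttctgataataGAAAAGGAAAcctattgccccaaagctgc
Ddx60: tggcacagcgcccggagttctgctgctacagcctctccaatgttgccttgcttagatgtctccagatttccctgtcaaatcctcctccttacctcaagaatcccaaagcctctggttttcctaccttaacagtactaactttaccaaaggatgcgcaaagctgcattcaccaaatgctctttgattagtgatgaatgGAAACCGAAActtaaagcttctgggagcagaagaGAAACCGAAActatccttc

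Of the lower genes in the MHC class I list 2 of 11 with a window held the interferon response motif (18.2%), B2m among them. Tap1 is shown as a gene of that list with a large fall and without these letters. Its window, on the plus strand at chr17:34187306-34187555, overlaps that of Psmb9 on the minus strand at chr17:34187331-34187580, so both starts lie back to back.
Tap1: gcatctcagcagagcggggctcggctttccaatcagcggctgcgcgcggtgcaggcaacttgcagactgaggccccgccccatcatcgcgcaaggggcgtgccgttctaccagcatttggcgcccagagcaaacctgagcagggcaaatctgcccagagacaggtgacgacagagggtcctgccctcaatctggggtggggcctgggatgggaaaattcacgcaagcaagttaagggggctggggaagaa
No match says only that the letters are not in this window. Other motifs were sought in the same windows, on both strands. The glucocorticoid receptor palindrome (GNACA, any 3 bases, TGTNC) was in 0 of 59 higher and 0 of 131 lower genes, against 0.400% of tested genes. The antioxidant response element TGACNNNGC was in 16.9% of higher and 13.7% of lower genes, against 16.4%. The NF-kB type motif (GGGA, any 4 bases, CC) was in 25.4% and 32.8%, against 30.0%, and the E-box CACGTG in 8.47% and 12.2%, against 11%. Matches of different motifs may overlap, and a match is a description of letters and not a binding site.

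Other lower genes had a known place in interferon or innate immune responses. Trim59, a membrane-anchored E3 ubiquitin ligase, had the smallest p of the lower genes named here. It was at 33.5, 36.2, 34.1 and 34.1 CPM in control libraries and at 15.7 to 18.7 CPM (median 17.4) in STZ libraries. Both groups were tight and far apart, with a log2 fold change of −0.98 (SE 0.0598, edgeR adjusted p = 1.5e-05). Its call held in the 10 fits without 1 library and in the 16 other alternatives, with an adjusted p of 0.0449 when the ependyma score was a term. Rnf213, a large ubiquitin ligase, fell by 1.39, Ddx60 by 2.29, the GTPase Ifi47 by 1.51 and the E3 ligase Trim30d, which has close copies, by 1.43. Tlr3, the receptor for double-stranded RNA, fell by 0.49 and was the 1 call among 30 NF-kB and inflammatory genes. Tnfsf10, the death ligand TRAIL, fell by 1.25. Calls of Rnf213, Ddx60, Ifi47, Trim30d and Tlr3 held without each library, and that of Tnfsf10 was lost in 8 of 10 fits, with an adjusted p of up to 0.100 without control 4.

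Genes of complement and of immune cells moved in different directions. C3, the central complement component, was at 7.36, 5.45, 5.08 and 6.66 CPM in control and at 2.12 to 3.58 CPM (median 3.09) in STZ libraries. It fell by 1.03 (SE 0.169, edgeR adjusted p = 0.0109) without overlap. C4b, the complement component upstream of it, fell by 0.62, though its groups overlapped. C3 and C4b were the 2 calls among 18 complement genes, whose median was −0.16. Of 22 microglial markers 1 was lower, Aif1 (IBA1), by 0.69, and the median was −0.07. Among 25 genes of disease-associated microglia and phagocytosis, Cybb fell by 1.22, Cd52, a leukocyte surface protein, by 0.92 and the tetraspanin Cd9 by 0.32. In the same list the integrin Itgad rose by 2.12, with control values of 0.193 to 0.504 CPM and STZ values of 0.807 to 1.88 CPM.

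Border macrophages sit along vessels and in the meninges, and the called genes of their marker list were higher. Stab1, a scavenger receptor, was at 7.90, 8.73, 7.52 and 7.63 CPM in control and at 11.2 to 13.4 CPM (median 12.1) in STZ libraries. It rose by 0.62 (SE 0.0812, edgeR adjusted p = 0.00269) with no overlap. F13a1, a transglutaminase of these macrophages, rose by 1.07 from 0.964 to 1.74 CPM in control to 2.35 to 3.99 CPM in STZ libraries. These were the 2 calls among 11 tested markers of border macrophages, against 0.474% of all tested genes called higher. The list did not move as a whole, with 6 positive and 5 negative fold changes, a median of 0.30 and a lowest value of −0.97. At an unadjusted p under 0.05 by edgeR, 4 were higher and 1 lower. Siglec1 (CD169), a sialic acid receptor of such macrophages that is in none of the lists and was chosen after its values were seen, fell by 1.57 (edgeR adjusted p = 0.0427), from 0.530 to 1.13 CPM in control to 0.128 to 0.388 CPM in STZ libraries. Ch25h, which makes 25-hydroxycholesterol, rose by 2.41, from 0.188 to 0.337 CPM in control to 0.388 to 2.12 CPM in STZ libraries, so few reads carry its estimate. The calls of C3, Stab1 and Itgad held without each library. Those of C4b, Aif1, Cybb, Cd52, Cd9, F13a1 and Ch25h were lost in 5 to 9 of the 10 fits, with adjusted p of up to 0.123 for Aif1 without control 4. The microglial and border macrophage scores overlapped between the groups.

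Oligodendrocyte genes were lower as a group. Of 28 tested markers 7 were lower and 0 higher, 27 had a negative fold change, and for 16 all control libraries lay above all STZ libraries. Of all tested genes 1.59% were lower and 3.89% had all control libraries above all STZ libraries. The median log2 fold change was −0.43. Mog, a protein of the outer myelin surface, was at 105, 111, 100 and 98.1 CPM in control and at 59.8 to 80.3 CPM (median 73.3) in STZ libraries. The groups did not overlap, and Mog fell by 0.52 (SE 0.0797, edgeR adjusted p = 0.00745). Opalin, a membrane protein of mature oligodendrocytes, was at 33.7, 44.9, 38.6 and 31.5 CPM in control and at 10.7 to 22.5 CPM (median 17.1) in STZ libraries. It had the lowest fold change of the list, −1.16 (SE 0.174, edgeR adjusted p = 0.00772).

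Other called members covered several layers of myelin biology. Sox10, the transcription factor of the lineage, fell by 0.63, the membrane enzyme Cnp by 0.42 and the sphingolipid hydroxylase Fa2h by 0.46. Trf (transferrin) fell by 0.48 and the choline phosphodiesterase Enpp6 by 0.44. Pllp (plasmolipin), a myelin protein outside the list, was at 78.5, 90.3, 77.9 and 72.2 CPM in control and at 40.2 to 51.8 CPM (median 47.9) in STZ libraries. It fell by 0.76 (SE 0.0816, edgeR adjusted p = 5.58e-04) without overlap. Mbp, the most abundant marker of the list, did not pass, with a log2 fold change of −0.13 and an adjusted p of 0.566.

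The oligodendrocyte list had 2 to 7 lower genes when 1 library was left out, the lowest without control 1, with DESeq2 calling 17 and limma-voom 8. Calls of Cnp and Fa2h were lost without control 1 (adjusted p 0.0600 and 0.0569), of Sox10 without control 1 or control 4 (up to 0.0695), and of Trf and Enpp6 in 7 and 9 of the 10 fits (up to 0.0963 and 0.119, both without control 1). Fitted beside the thalamus, striatum and hypothalamus scores, the list had medians of −0.44, −0.39 and −0.43 with 17, 10 and 15 lower genes. Beside the choroid plexus and ependyma scores the medians were −0.29 and −0.11 with 0 lower genes in each. In pIC 0 of 28 were called by edgeR, with a median of −0.14. Markers of oligodendrocyte precursors had a median of 0.16 in PVT with 0 of 13 called by edgeR (4 higher and 1 lower at an unadjusted p under 0.05, 1 higher by DESeq2 and 0 by limma-voom).

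**Figure D4:**
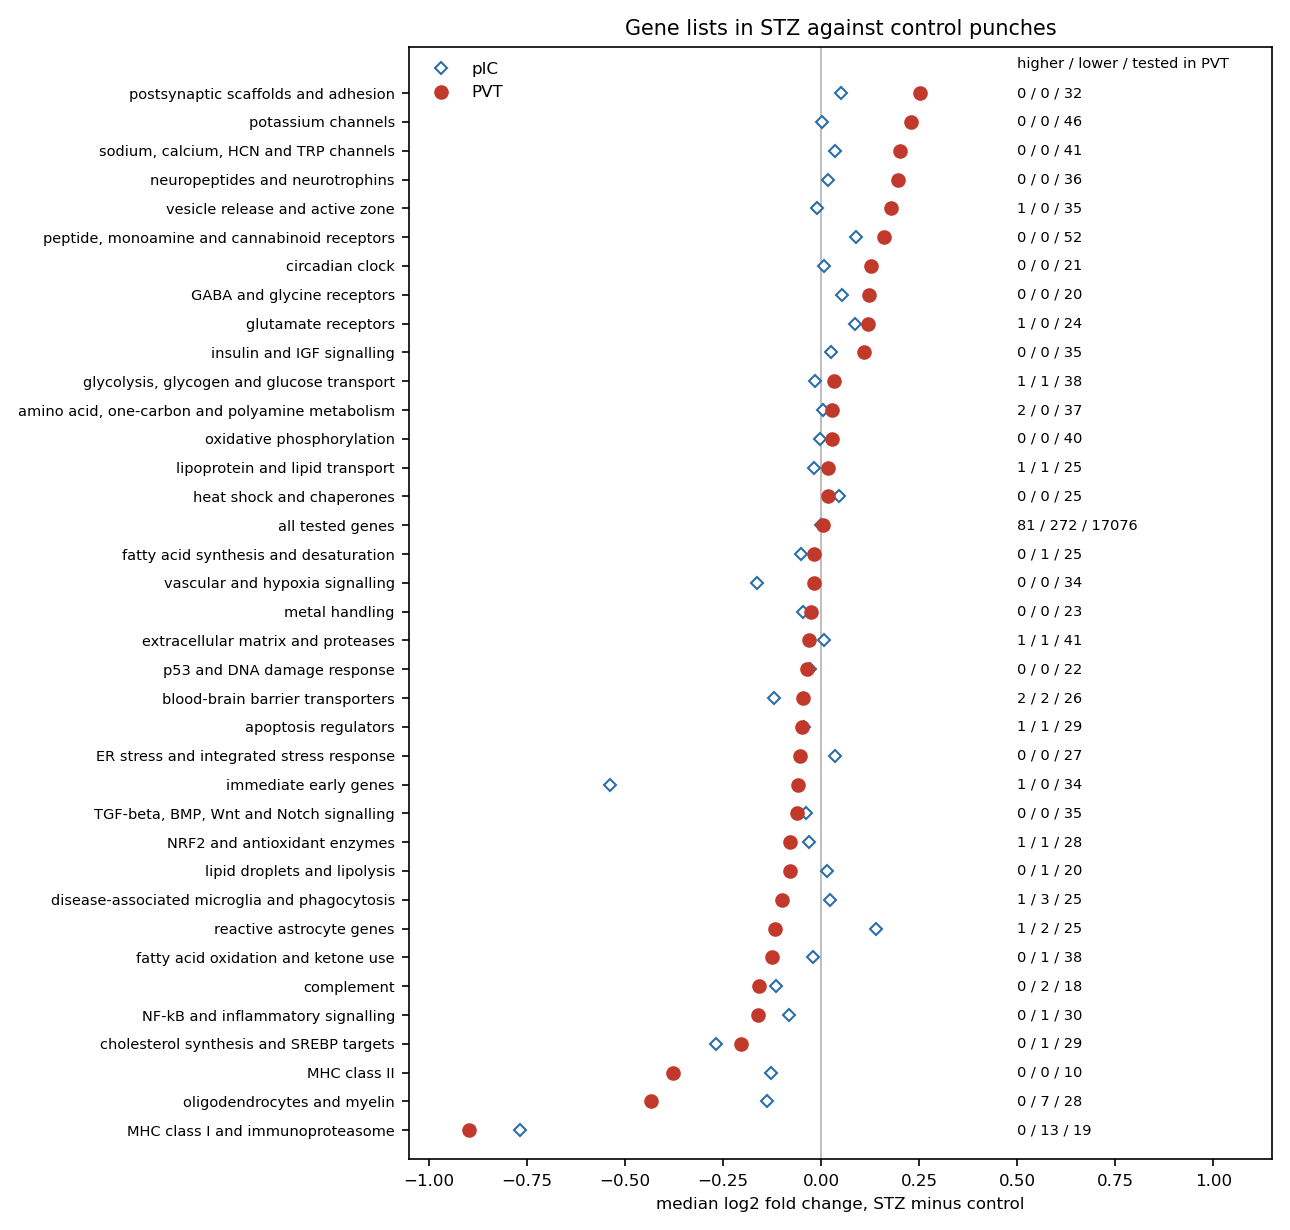
Median log2 fold change (STZ minus control) of functional gene lists, the oligodendrocyte list and all tested genes, in PVT (red circles) and pIC (open diamonds), with counts of higher, lower and tested genes in PVT at the right. MHC class I and oligodendrocyte genes lie lowest, most metabolic and stress lists lie near 0, and the neuronal lists lie between 0.12 and 0.25 with 0 or 1 genes called.

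Genes of lipid supply and lipid storage changed singly. Mfsd2a (ENSMUSG00000028655), the transporter of lysophosphatidylcholine with omega-3 fatty acids at brain endothelium, was at 22.5, 21.8, 25.1 and 25.5 CPM in control and at 41.8 to 54.2 CPM (median 45.8) in STZ libraries. Each STZ library exceeded each control library. Its log2 fold change was 0.98 (SE 0.0814, edgeR adjusted p = 1.12e-04), and 0.82 with an adjusted p of 0.273 when fitted beside the ependyma score, the only alternative without a call of Mfsd2a. Pltp, which transfers phospholipids between lipoproteins, was at 156, 141, 139 and 150 CPM in control and at 86.4 to 106 CPM (median 96.9) in STZ libraries, and fell by 0.62 (SE 0.0641, edgeR adjusted p = 4.83e-04). Plin2, a coat protein of lipid droplets, fell by 0.56, from 9.74 to 12.4 CPM in control to 6.6 to 7.55 CPM in STZ libraries.

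Cholesterol synthesis genes had a median of −0.20 in PVT, with 1 of 29 called, Insig1, which holds SREBP in the endoplasmic reticulum. The fold change was negative for 25 of the 29. All control libraries lay above all STZ libraries for 6, against 3.89% of all tested genes. Insig1 was at 88.7, 81.1, 88.7 and 79.0 CPM in control and at 48.4 to 71.2 CPM (median 61.1) in STZ libraries. It fell by 0.50 (SE 0.0933, edgeR adjusted p = 0.0232) without overlap between the groups. DESeq2 called 7 of the list lower, limma-voom 3 and edgeR 15 at an unadjusted p under 0.05. In pIC 10 of the 29 were lower (0.964% of all genes tested there), with a median of −0.27. The fatty acid elongase Elovl7 fell by 0.64 and was the 1 call of 25 genes of fatty acid synthesis. The calls of Pltp and Plin2 held without each library, while Insig1 and Elovl7 lost theirs in 5 and 7 of the 10 fits, with adjusted p of up to 0.0759 without control 1 and 0.0748 without control 4. Among 38 genes of fatty acid oxidation and ketone use the median was −0.12, with 1 lower, Acads (short-chain acyl-CoA dehydrogenase), by 0.44. In this list 15 genes were lower and 1 higher at an unadjusted p under 0.05, and DESeq2 called 4 lower and limma-voom 0. All control libraries lay above all STZ libraries for 8 of the 38, against 3.89% of all tested genes. The call of Acads was lost in 9 of 10 fits (adjusted p 0.161 without control 4).

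Transporters of the blood-brain barrier included 2 higher and 2 lower genes among 26, against 0.474% higher and 1.59% lower of all tested genes. Their median was −0.05, with 11 positive and 15 negative fold changes. Slc2a1, the glucose transporter GLUT1 of brain endothelium, was at 146, 139, 150 and 131 CPM in control and at 161 to 212 CPM (median 201) in STZ libraries. It rose by 0.45 (SE 0.0788, edgeR adjusted p = 0.0173) without overlap, and the adjusted p was 0.0610 without control 4. Mfsd2a was the other higher gene. Slc16a1, the monocarboxylate transporter MCT1 for lactate and ketone bodies, fell by 0.46 from 42.1 to 45.8 CPM in control to 25.2 to 39.1 CPM in STZ libraries. The glutamine transporter Slc38a3 fell by 0.47 from 59.7 to 80.4 CPM to 43.7 to 53.7 CPM. Among 22 endothelial markers Mfsd2a and Slc2a1 were higher and Itm2a, a membrane protein, was lower by 0.39. Slc16a1 lost its call in 9 of 10 fits (adjusted p up to 0.141 without control 4), Slc38a3 without control 3 or STZ 4 (up to 0.0541), and Itm2a without control 1, control 4 or STZ 4 (up to 0.0722).

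Energy metabolism and insulin signalling showed few calls. Of 40 genes of oxidative phosphorylation 0 were called by edgeR, DESeq2 or limma-voom, 1 was lower at an unadjusted p under 0.05, and fold changes lay between −0.14 and 0.09 on the log2 scale. Of 35 genes of insulin and IGF signalling 0 were called by edgeR, with 8 higher at an unadjusted p under 0.05, 3 higher by DESeq2 and 1 by limma-voom, and a median of 0.11. Igf1, the growth factor itself, was at 4.62, 5.45, 6.67 and 5.07 CPM in control and 7.17 to 10.1 CPM (median 7.98) in STZ libraries. Its groups did not overlap, but the log2 difference of 0.58 missed the threshold (SE 0.132, edgeR adjusted p = 0.0514). Of 38 genes of glycolysis, glycogen and glucose transport, Slc2a1 was higher and Slc16a1 lower.

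Amino acid and polyamine genes gave 2 higher calls among 37, Cbs (cystathionine beta-synthase), by 0.36, and Smox (spermine oxidase), by 0.48. Of all tested genes 0.474% were higher. The list as a whole stayed near 0, with a median of 0.03 and 21 positive and 16 negative fold changes. At an unadjusted p under 0.05 by edgeR, 5 of its genes were higher and 5 lower. Slc38a2, a neutral amino acid transporter outside the lists, was at 150, 114, 114 and 113 CPM in control and at 178 to 332 CPM (median 201) in STZ libraries. Every STZ library exceeded control 1, the highest control, and Slc38a2 rose by 0.85 (SE 0.18, edgeR adjusted p = 0.0409). Calls of these 3 genes were lost in 7 to 9 of the 10 fits, and each had its highest adjusted p without control 4 (0.0937 for Cbs and 0.147 for both Smox and Slc38a2).

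Stress response lists stayed near 0 apart from single genes. Srxn1 (sulfiredoxin), which restores overoxidised peroxiredoxins, was at 97.6, 95.0, 106 and 96.2 CPM in control and at 127 to 160 CPM (median 143) in STZ libraries. It rose by 0.55 (SE 0.0701, edgeR adjusted p = 0.0020) with a wide gap between the groups. Prdx1, a peroxiredoxin, was at 180, 188, 191 and 204 CPM in control and at 148 to 167 CPM (median 157) in STZ libraries, and fell by 0.27. Srxn1 and Prdx1 were the 2 calls among 28 genes of the NRF2 and antioxidant list, whose median was −0.08. Maff, a small Maf transcription factor, rose by 1.08 from 1.61 to 2.77 CPM in control to 3.63 to 5.69 CPM in STZ libraries, and was the 1 call among 34 immediate early genes. Their median was −0.06 in PVT and −0.54 in pIC, where 8 of the 34 were lower (0.964% of all genes tested there). Bcl2l1, an inhibitor of apoptosis, rose by 0.32. Srxn1 kept its call without each library, Maff lost it without control 1 (adjusted p 0.0639), and Prdx1 and Bcl2l1 lost it in 7 and 8 of the 10 fits (up to 0.0806 and 0.0845, both without control 4).

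Of the 27 genes of endoplasmic reticulum stress 0 were called by edgeR, DESeq2 or limma-voom, with 4 lower at an unadjusted p under 0.05. The 25 heat shock genes gave 0 calls by the same tools, with 3 higher and 2 lower at that level, and the 22 p53 genes gave 0, with 1 lower. The 21 clock genes had a median of 0.13 and 0 calls by all 3 tools, with 5 higher at an unadjusted p under 0.05.

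Few genes of the extracellular matrix and proteases were called. Of 41 tested, Htra1 was higher and Serpinh1 lower, and the median log2 fold change was −0.03. Over all tested genes 0.474% were higher and 1.59% lower. Htra1 (ENSMUSG00000006205), a secreted serine protease, was at 139, 134, 155 and 145 CPM in control and at 202 to 255 CPM (median 229) in STZ libraries. It rose by 0.68 (SE 0.0788, edgeR adjusted p = 9.44e-04), and all STZ libraries lay above all control libraries. Lum (lumican) and Dcn (decorin), small leucine-rich proteoglycans of meningeal fibroblasts, fell by 0.77 and 0.60, the 2 calls among 20 fibroblast markers with a median of −0.11. Serpinh1, the collagen chaperone HSP47, fell by 0.48 from 34.7 to 47.2 CPM in control to 28.3 to 33.5 CPM in STZ libraries.

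Lbp (lipopolysaccharide-binding protein), the 1 call among 22 choroid plexus markers, fell by 0.95, from 28.6 to 42.7 CPM in control to 12.4 to 21.9 CPM in STZ libraries. In control mice it was 4.39 higher on the log2 scale in PVT than in pIC. Fitted beside the choroid plexus score, its fold change was −0.44 with an adjusted p of 0.0474 by edgeR. Lbp is itself part of that score, so this fit cannot separate Lbp from choroid plexus content. Htra1 kept its call without each library, while Lum, Serpinh1 and Lbp lost theirs without control 1, control 4 or STZ 4 (up to 0.0806, 0.0746 and 0.0806), and Dcn in 8 of 10 fits (up to 0.0992 without control 1).

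Neuronal genes had small positive values with few calls. In 8 lists of ion channels, transmitter receptors, synaptic proteins and neuropeptides, 286 genes were tested, 237 had a positive fold change, 2 were higher and 0 lower, and the median was 0.20. Over all 17076 tested genes 8678 had a positive fold change and 0.474% were higher by edgeR, so the 2 edgeR calls are near the background. DESeq2 called 17 of the 286 higher, against 337 of all tested genes outside the lists set aside, which is a larger share. With limma-voom 2 were higher, against 68 outside the lists set aside. At an unadjusted p under 0.05, 43 were higher. The share of all genes tested in PVT at that level is not given here, so unadjusted counts of this and other lists stand without a background. Grin2c, the NMDA receptor subunit GluN2C, was at 23.3, 24.5, 25.4 and 20.6 CPM in control and at 29.0 to 39.6 CPM (median 33.1) in STZ libraries. It rose by 0.52 (SE 0.0909, edgeR adjusted p = 0.0166) without overlap. Rims2, a scaffold of the presynaptic active zone, rose by 0.34 from 70.8 to 89.9 CPM to 98.3 to 114 CPM. The secreted follistatin-like protein Fstl4, outside the lists, rose by 0.72 from 6.08 to 9.40 CPM to 11.3 to 14.2 CPM. Grin2c lost its call without control 1 or control 4 (up to 0.0618), Fstl4 without control 1 (0.0537) and Rims2 in 9 of 10 fits (up to 0.0918 without control 4).

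Within these lists, potassium channels had a median of 0.23, with 40 of 46 positive and 0 called by edgeR or limma-voom, 9 higher at an unadjusted p under 0.05 and 3 higher by DESeq2. Postsynaptic scaffold genes had a median of 0.25, with 31 of 32 positive, 0 called by edgeR or limma-voom, 6 higher at an unadjusted p under 0.05 and 3 higher by DESeq2. Shank3, a postsynaptic scaffold, was at 150, 184, 159 and 123 CPM in control and at 184 to 253 CPM (median 211) in STZ libraries, with a log2 difference of 0.49 and an adjusted p of 0.0596 by edgeR. The median fold change was also positive for markers of the punched neurons, 0.51 for thalamus (14 of 18 positive) and 0.57 for striatum (19 of 19 positive), with 0 called in each by edgeR, DESeq2 or limma-voom and 1 and 0 higher at an unadjusted p under 0.05. The thalamus sum was highest in STZ 5 and STZ 6 (2655 and 1876 CPM), and its STZ median of 921 CPM lay within the control range of 668 to 1352 CPM. The striatum sum was highest in STZ 1 and STZ 3 (5715 and 4291 CPM), and its STZ median of 1908 CPM lay within the control range of 714 to 2584 CPM. Fitted beside the thalamus, striatum and hypothalamus scores, potassium channels had medians of 0.21, 0.23 and 0.22, and postsynaptic genes 0.27, 0.18 and 0.23. Beside the choroid plexus, myelin and ependyma scores the medians were 0.09, 0.39 and 0.02 for potassium channels and 0.18, 0.11 and −0.09 for postsynaptic genes.

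Further genes of small p fell in no list. Ppp1r10, a nuclear targeting subunit of protein phosphatase 1, was at 43.6, 46.3, 47.8 and 45.1 CPM in control and at 58.4 to 70.4 CPM (median 63.5) in STZ libraries. It rose by 0.49 (SE 0.0599, edgeR adjusted p = 0.00143) with no overlap. Pias2, a SUMO ligase, rose by 0.31 and the endocytic adaptor Hip1 by 0.38. Among the lower genes Utp14b, of ribosome assembly, fell by 0.93, and it overlaps Acsl3 on the same strand in GENCODE, so their reads can be confused. The protease inhibitor Serpinb1a fell by 0.97 and Dnaaf3, which assembles dynein arms of cilia, by 1.05. Dnaaf3 was at 4.34 to 4.73 CPM in control and 2.00 to 2.43 CPM in STZ libraries, beside the ependyma score that separates the same groups. All 6 kept their calls without each library.

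The same comparison in pIC gave 70 higher (0.432%) and 156 lower genes (0.964%) of 16189, 1.40% in all. PVT and pIC libraries carry matching labels, and whether they came from the same mice is not stated. Of the 69 higher PVT genes 68 were tested in pIC, where 68 had the same sign and 16 were called. Of the 187 lower genes 162 were tested, 150 had the same sign and 33 were called. The share of all tested genes with the same sign in both regions is not given here, so these sign counts stand without a background. Cortical punches held little ependyma or choroid plexus, with Foxj1, a transcription factor of ciliated cells, at 2.33 to 6.18 CPM in pIC against 18.8 to 44.8 CPM in PVT. Ttr (transthyretin), of choroid plexus, was at 1.99 to 113 CPM in pIC against 1279 to 5859 CPM in PVT. Mfsd2a, Ppp1r10, Stab1, Cbs and Smox were called in pIC too, with log2 fold changes of 0.67, 0.60, 0.58, 0.45 and 0.53. Tap1, Psmb8 and Pltp were also called there, with −1.50, −1.19 and −0.70. For the oligodendrocyte genes Mog and Opalin the pIC values were −0.27 and −0.94, with edgeR adjusted p of 0.590 and 0.134.

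A test of the difference between the regions (the interaction of region and treatment over 20 libraries, edgeR) called 0 of 17427 genes (0%), with 701 at an unadjusted p under 0.05 (4.02%). Leaving out 1 library gave 1 call without pIC STZ 1 and 3 without PVT control 2. No change in PVT is thus shown to differ from that in pIC. Of the 71 named called genes 16 had an unadjusted interaction p under 0.05, and the lowest adjusted p was 0.168, for Lbp. Lbp differed between the regions by −1.75 (SE 0.314), with a pIC log2 fold change of 0.77 at a mean of 1.08 CPM in control pIC. For Srxn1 the difference was 0.33 (SE 0.0828) and for Fstl4 0.67 (SE 0.171), each with an adjusted p of 0.767. For Trim59 the difference was −0.43 (SE 0.199), and its pIC value of −0.56 had an adjusted p of 0.203.

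**Figure D5:**
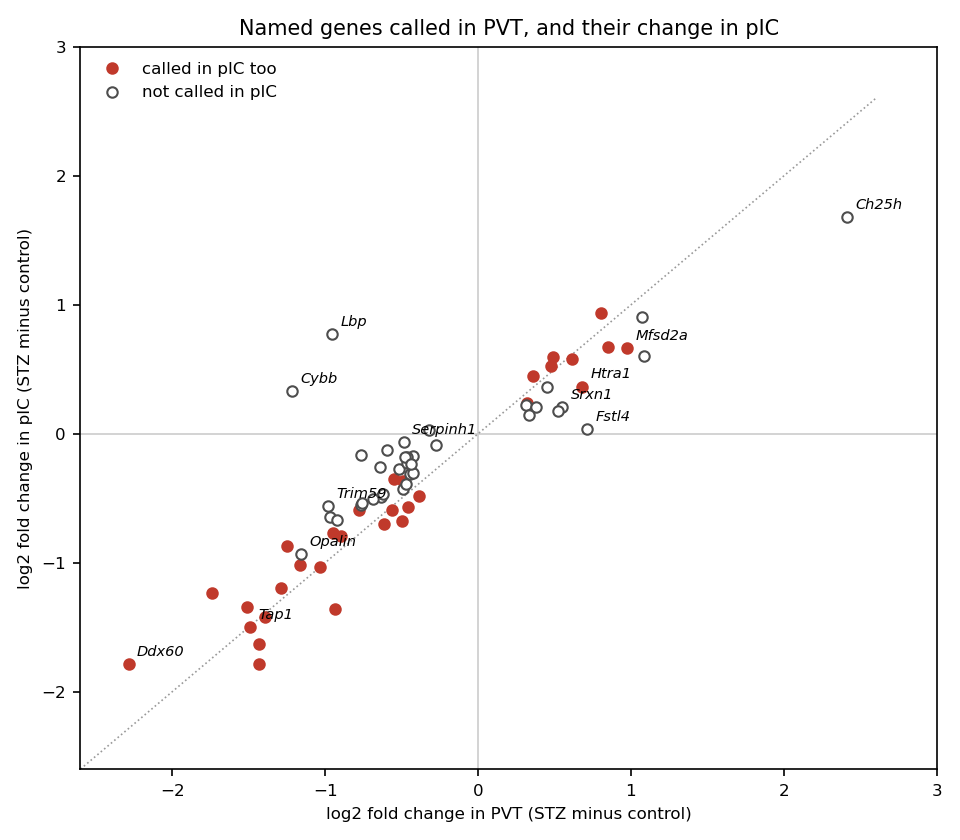
Log2 fold change (STZ minus control) in PVT against pIC for 68 named genes that were called in PVT and tested in pIC, filled where also called in pIC (31 genes). Of the 68 genes 65 have the same sign in both regions, and Lbp and Cybb stand apart with positive values in pIC. The dotted line marks equal change.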

How the data were processed

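Poly(A)-selected, stranded RNA libraries of tissue punches were sequenced, per the labels' protocols. The values are read counts per gene as the authors deposited them, unnormalized, on GRCm39 (mm39) per the submitters' processing notes. For the aligner, the counter, the strand setting and the annotation release, nothing is stated (not given in the sources used here). The table held 57180 identifiers, of which 51884 were matched to symbols and 24926 had no count. Totals of 17939029 to 25345195 counts set the precision in PVT. Replicates differed by more than sampling noise (smallest chi-square per degree of freedom 8.02).

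The 4 control and 6 STZ PVT libraries were compared with edgeR 4.0.16 (R 4.3.3; filterByExpr with minimum counts of 10 and 15, TMM scaling, quasi-likelihood test), with Benjamini-Hochberg adjustment over all tested genes and a threshold of 0.05. CPM are TMM-scaled, and log2 CPM of marker scores used a prior count of 2. The ratio of PVT to pIC used a pseudocount of 0.5 CPM. Alternatives were DESeq2 1.42.0, limma-voom (limma 3.58.1), other scaling and filters, a replicate block, all 20 libraries in 1 fit, marker scores as covariates and libraries left out. The fits were tested on simulated data.

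Of 1543 genes in 35 functional and 21 marker lists and the lists set aside, 1541 were in the table. The naming rule took, outside the 3 lists and at a mean of at least 1 CPM, and among genes with an established symbol (no Gm, Rik or predicted names), the 10 higher and 10 lower genes with the smallest p and the 5 of each with the largest fold change. It added from each other list up to 3 called members by smallest p, or the 1 with the smallest p where none was called, and there the minimum of 1 CPM and the lists set aside were not applied, so that Fkbp5, a glucocorticoid-induced gene in the reactive astrocyte list, and Cybb and Ch25h, under 1 CPM, were taken. The remaining called members of the MHC class I, oligodendrocyte and disease-associated microglia lists were named as well, which the rule did not ask for. The members and lists were chosen with earlier results of these data known. Promoters came from RefSeq on GRCm38.p6, another build than that of the counts, and overlaps of genes from GENCODE on GRCm38. Genes were matched between them by symbol.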

Additional observations from a re-analysis of the deposited data

Results flagged for a closer look

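In 8 of the 240 sets of 4 or 6 library values examined, 1 library stood far from the others. Chance alone gives about 1 in 20 such sets. Psmb8 was at 5.26 CPM in control 3, against 7.31 to 7.81 CPM in the other control libraries. Slc38a2 was at 150 CPM in control 1, against 113 to 114 CPM. Control 4 was apart for 3 values. Its Pomc level was 877 CPM against 0.868 to 1.88 CPM, its Itm2a level 67.2 CPM against 56.4 to 57.5 CPM, and its pituitary marker score 6.90 against −0.03 to 0.73. The hypothalamus marker score was 1.27 in control 2, against 3.10 to 3.30 in the other control libraries. Ccn2 was at 9.43 CPM in STZ 6, against 22.2 to 32.8 CPM in the other STZ libraries, and the microglia marker score was 4.29 in STZ 5, against 4.40 to 4.44.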

How the results depend on the processing

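Against 353 genes called in PVT, DESeq2 called 904 and 1 fit of all 20 libraries 679. With a marker score as covariate the count was 902 (thalamus), 729 (hypothalamus), 645 (striatum), 58 (choroid plexus), 22 (myelin) and 6 (ependyma). Leaving out 1 library gave 143 to 343 calls, leaving out the 4 libraries lowest in thalamus score 35, and leaving out control 4, STZ 5 and STZ 6, an alternative chosen after seeing the data, 146. The cause of these shifts was not tested. The replicate block gave 72 calls in PVT and 0 for the difference between regions. Control and STZ libraries of number 2 deviated together (r of 0.459), while those of numbers 1, 3 and 4 did not (−0.28, −0.244 and −0.224), so the numbers are not taken as pairs. The count for the difference between regions, 0, was 0 to 3 when 1 library was left out, with 1 without pIC STZ 1 and 3 without PVT control 2.

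Of the 71 named called genes, those that kept their call numbered 71 with DESeq2, 65 with limma-voom, 67 with all 20 libraries, 40 without control 4, STZ 5 and STZ 6, 20 with the block, 16 with the choroid plexus score, 2 with the myelin score and 1 with the ependyma score, and 0 changed direction. Genes outside the calls did so. Trac ranged from a log2 fold change of −0.81 (without STZ 5) to 0.042 (without control 3) when 1 library was left out, and was at 0.36 with the ependyma score and 1.20 with the myelin score. Pomc ranged from −6.82 (without STZ 5) to 1.24 (without control 4), and was at 1.35 without the 4 libraries lowest in thalamus score and 0.066 without control 4, STZ 5 and STZ 6. With the ependyma score Col12a1 was at −0.0097, Rgs10 at 0.14, Ccn2 at −0.22 and Id3 at 0.012, and with the myelin score Pde10a was at −0.27. Genes under a few CPM rest on few reads at this depth.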
